A study of Rattus norvegicus with 6 samples.

Results

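Hsp90ab1 encodes HSP90 beta, a heat-shock chaperone of the cytosol and a member of the HSP90 family, and its RNA was followed here in the hypothalamus of heat-acclimated rats. The gene was chosen for its role, since the rats were heat acclimated, and not for its values, though earlier results of these data were known. It was 1 of 38 genes that could be matched by transcript accession to a linear transcript probe of a rat circRNA array, and its probe was 1 of 14227 probes other than controls. The array held 14145 circRNA probes and 62 linear transcript probes with an accession, of which 39 matched a gene. The Hsp90ab1 probe, CUST_8_PI421900130, was printed at 10 spots of each array.

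All 6 samples were hypothalamus, with the preoptic area included, of male Sprague Dawley rats whose age was not given. The 3 HA rats, labelled as heat exposed for 30 days, spent 2 h a day in a chamber at 35 °C and 55% relative humidity, and the 3 C rats, labelled as exposed for 0 days, were kept at 24 °C. Tissue was taken on day 31, so the measurement followed repeated daily exposure and was not made during a single heat stress. Each rat was sampled individually, and 1 one-colour array was hybridized per rat. Before labelling, total RNA of both groups was digested with RNase R, an enzyme that chews RNA from a free end and so spares circles. The signal of a linear transcript probe such as that of Hsp90ab1 is therefore what remained after this digestion. The level of the messenger RNA in the tissue and the share of it that was digested cannot be told apart. Whether circles from the same gene add to the signal of the probe was not tested. In whole tissue, fewer cells of a type and less RNA per cell cannot be told apart either.

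HSP90 chaperones bind partly folded client proteins, among them steroid hormone receptors and kinases, and release them with the help of ATP and co-chaperones. HSP90 beta is the form made at a high level in most cells without stress, while HSP90 alpha, the product of Hsp90aa1, is the form more strongly induced by heat. HSP90 also holds heat shock factor 1, the main transcription factor of the heat-shock response, in an inactive state. The hypothalamus and its preoptic area set body temperature.

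In the RefSeq annotation of the GRCr8 build, Hsp90ab1 (gene 301252) lies on chromosome 9 from 22930249 to 22935929. The transcript accession of the probe matched this gene and no other. The annotation also names 23 pseudogenes of Hsp90ab1 on 10 chromosomes, 1 of them transcribed, and the probe's specificity against these copies was not tested, so the source of the signal within this family is uncertain.

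The stretch of the Hsp90ab1 promoter shown next lies at chr9:22930173-22930250 on the plus strand (GRCr8, RefSeq) and is shown because heat shock factors bind in the promoters of many chaperone genes. Capitals mark TGACGTCA, the cyclic AMP response element.

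Hsp90ab1: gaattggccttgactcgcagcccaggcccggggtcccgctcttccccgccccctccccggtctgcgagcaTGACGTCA

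The annotated gene span begins at 22930249, inside the marked motif, and the transcript start of the RefSeq promoter table lies further on, at 22930423. In the 250 bases before that start, TGACGTCA, which reads the same on both strands, was found 1 time. It was present in 1.59% of the 33469 promoter windows of this length. The inverted pairs that form the core of heat-shock elements, GAANNTTC and TTCNNGAA, which also read the same on both strands, were not in this window of Hsp90ab1. Most of this window lies inside the annotated gene span, and bases before 22930173 were not searched. The absence of a pair therefore does not extend to the bases further before the gene. Either pair was present in 13.5% of all windows and in 15 of 34 windows of 33 heat-shock chaperone, co-chaperone, regulator and client genes. The genes with a pair included Hsph1, Dnajb1, Hspb1 and Hspd1. These matches describe letters in a window of fixed length only.

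The probe gave a bright signal on every array. All 60 spots were marked by the scanner software as well above background and 0 were saturated. The spots of Hsp90ab1 had processed signals, which are intensities on a linear scale after background subtraction, from 2674 to 6418, while the brightest of the 77 negative-control spots of any array was at 4.01. In HA replicate 1, the 10 spots ranged from 2674 to 3124 with a median of 2896. In HA replicate 2, they ranged from 4567 to 5064 with a median of 4857. In HA replicate 3, they ranged from 5583 to 6418 with a median of 6034. The 3 HA arrays thus did not overlap with each other, with replicate 1 the dimmest and replicate 3 the brightest of all 6. In C replicate 1, the spots ranged from 3443 to 3958 with a median of 3786. In C replicate 2, the 9 spots used ranged from 4707 to 5148 with a median of 5017, and the other spot, at 4556, was marked as an outlier and left out. In C replicate 3, they ranged from 4417 to 4679 with a median of 4478. The C arrays all lay between the extremes of the HA arrays.

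**Figure D1:**
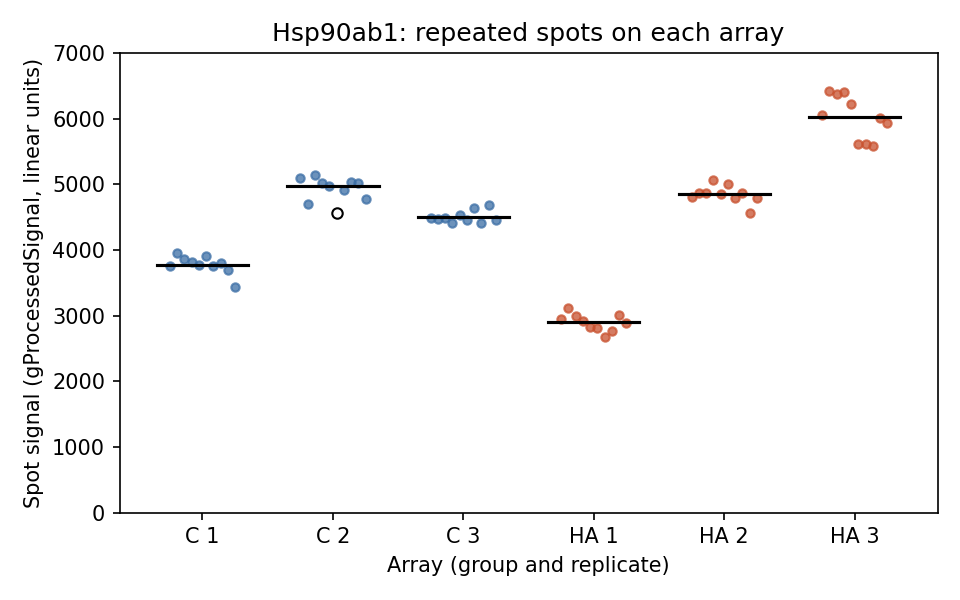
Processed signal of every Hsp90ab1 spot (linear axis from 0) on each of the 6 arrays, by group and replicate; bars show the mean of the spots used and the open symbol is the outlier spot of C replicate 2. The spots of an array lie close together, and HA replicates 1 and 3 sit at the bottom and the top.

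The repeated spots of an array agreed closely. Their coefficient of variation was 1.97% to 5.56% per array, and their SD on the log2 scale was 0.0282 to 0.0806. The SD between rats, pooled within the groups, was 0.41 on the log2 scale before normalization and 0.33 after it, the latter 6.36 times the mean SD of the spots. Repeated spots share the RNA of 1 rat and were averaged, so n is the number of rats throughout. The spread of Hsp90ab1 between rats was above the median of 0.25 over all 13892 tested probes and near the median of 0.35 over the tested linear transcript probes. The other named genes were read at 25 probes well above background on all 6 arrays, and 9 of these had a larger spread than Hsp90ab1.

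Without normalization between arrays, the signal of Hsp90ab1 had the same mean in both groups. The mean log2 signal was 11.50, 12.24 and 12.55 in HA replicates 1 to 3 and 11.88, 12.28 and 12.14 in C replicates 1 to 3. The group means were 12.10 ± 0.54 in HA and 12.10 ± 0.20 in C (SD, n = 3), with 2 HA rats at the ends of the order and the C rats inside it. A two-sided exact permutation test gave P = 1, where 3 rats against 3 allow no P under 0.1. Within the first row of the slide, where HA replicate 1 was set against the 3 C rats, the difference was -0.60 (exact permutation P = 0.25, the smallest possible). On the linear scale, the means were 4589 ± 1580 in HA and 4416 ± 599 in C (SD, n = 3, exact permutation P = 0.9). The arrays also differed in brightness, with a median circRNA signal of 88.7, 149 and 135 on HA replicates 1 to 3 and of 119 to 135 on the C arrays. HA replicate 1 was thus the dimmest array for both, and the part of array brightness in the spread of Hsp90ab1 was not tested.

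After quantile normalization, which gives all arrays the same distribution of signals, Hsp90ab1 did not differ between the groups beyond the spread between rats. The normalized log2 signal was 12.04, 11.90 and 12.71 in HA replicates 1 to 3. It was 11.81, 12.14 and 12.06 in C replicates 1 to 3. From lowest to highest, the order was C 1, HA 2, HA 1, C 3, C 2 and HA 3, so the groups overlapped and only HA replicate 3 stood above all C rats. The means were 12.22 ± 0.43 in HA and 12.00 ± 0.17 in C (SD, n = 3), a difference of 0.21 ± 0.23 (SE) on the log2 scale, or 1.16-fold. With limma over all tested probes, P was 0.385 and the Benjamini-Hochberg adjusted P was 0.929. The 95% confidence interval of the change ran from 0.805-fold to 1.67-fold, so a 1.5-fold higher level in HA lies inside it. At the limits used in the study for circRNAs, a fold change over 1.5 and P under 0.05, 368 of the 13892 tested probes, or 2.65%, were called, and Hsp90ab1 was not. Before adjustment, 648 of the tested probes had a limma P under 0.05, and after Benjamini-Hochberg adjustment 0 did. Of the tested probes, 35.8% had a larger change in either direction than Hsp90ab1. The difference rested on HA replicate 3: without that rat it was -0.03 on the log2 scale. HA replicates 2 and 3 lay in the second row of the slide and the other 4 arrays in the first. Within the first row, where HA replicate 1 was the 1 HA rat, the difference was 0.03. The second row held no C rat, so a fit with the row as a block rests on the same comparison and also gave 0.03. With the column of the slide as a block the difference was 0.37 (limma adjusted P = 0.727). Of the columns that held both groups, the first gave a difference of 0.10 (HA replicate 2 minus C replicate 1) and the second of 0.65 (HA replicate 3 minus C replicate 3).

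**Figure D2:**
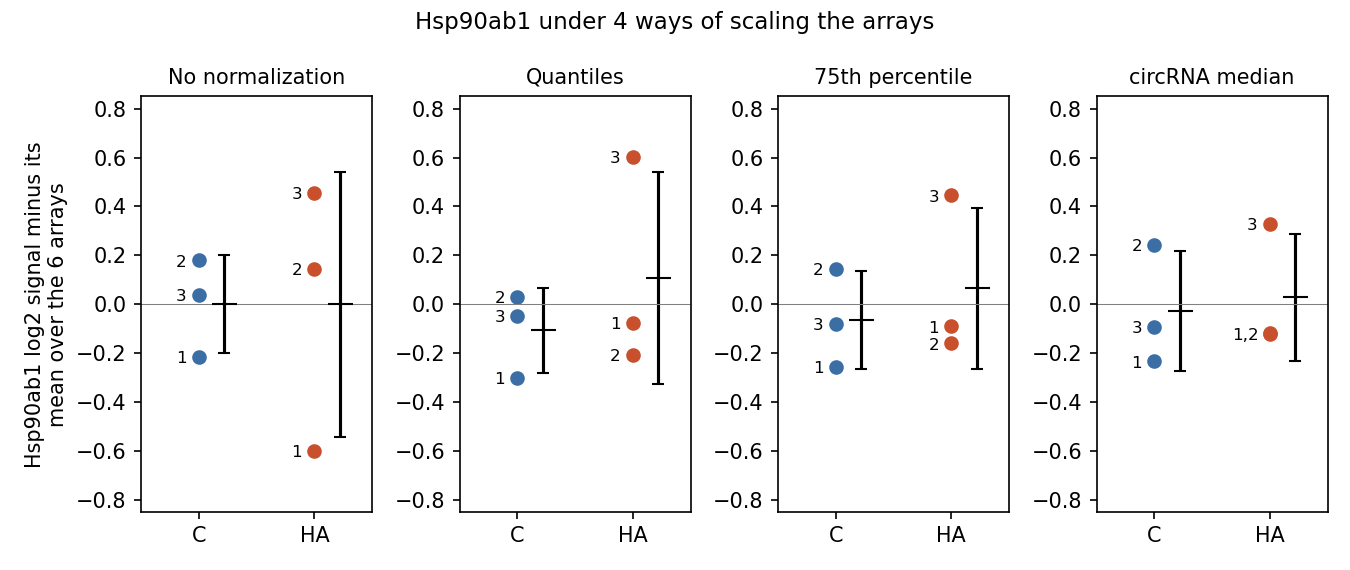
Log2 signal of Hsp90ab1 minus its own mean over the 6 arrays, in C and HA, with no normalization between arrays, after quantile normalization, and after scaling to the 75th percentile or to the circRNA median of each array; points are rats, numbered by replicate, and bars are mean ± SD (n = 3). The groups overlap in every panel, and HA replicate 3 is the highest point in each.

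The size of the difference depended on how the arrays were scaled. Quantile normalization raised HA replicate 1 by 0.54 and HA replicate 3 by 0.16 and lowered HA replicate 2 by 0.34 on the log2 scale, while the C arrays were lowered by 0.07 to 0.14. After scaling to each array's 75th percentile the difference was 0.13, and after scaling to the median circRNA signal it was 0.06. The median change of all tested probes was -0.0055 after quantile normalization and 0.05 after 75th percentile scaling. The groups overlapped under each of these scalings, and neither scaling made Hsp90ab1 pass the limits.

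To set Hsp90ab1 against transcripts that went through the same digestion, its normalized log2 signal was expressed as a change relative to the mean of the 25 other named linear probes (24 genes) on the same array. That mean was itself 6.20 ± 0.30 in HA and 6.17 ± 0.13 in C (SD, n = 3), a difference of 0.03, and it was highest on HA replicate 3 and lowest on HA replicate 2. Relative to it, Hsp90ab1 was at 5.91, 5.96 and 6.18 in HA replicates 1 to 3 and at 5.78, 5.94 and 5.78 in C replicates 1 to 3. The difference was 0.18 on the log2 scale, with overlap of HA replicate 1 and C replicate 2 and an exact permutation P of 0.2. The pooled SD between rats was 0.12 on this scale, against 0.33 for the normalized signal itself. The direction depended on the normalization, since without it, or with any scaling that shifts all values of an array alike, the difference in this relative level was -0.01 (exact permutation P = 0.9). It was 0.31 with the median of the 25 probes in place of their mean, and 0.07 within the first row of the slide.

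Among the other named linear transcripts, none was called either. Of 38 other named probes, 31 passed the filter on dim probes, 13 were higher and 18 lower in HA, and 0 were called by limma, with 0 at an unadjusted P under 0.05. Over all tested probes 2.65% were called, and at that share 0 calls among 31 probes do not set them apart. The unmoderated test also called 0, and limma with the replicate number as a block called 1. Their median log2 change was -0.02, beside -0.0055 over all tested probes. The extremes were Ptk2b, a tyrosine kinase of neurons, at -0.63 (limma adjusted P = 0.923) and Actb, the gene of beta-actin, at 0.43. The Ptk2b probe was dim and was well above background on 5 of 6 arrays. Its normalized log2 signal was 4.43 on C replicate 2 and 2.59 to 3.32 on the other arrays. Hsp90ab1 was 6th from the top of the 32 named probes tested, and the 95% interval of all 32 held 0. After scaling to the 75th percentile instead, 22 of the 31 were higher and 9 lower, so the split followed the scaling. Over all 62 linear transcript probes with an accession, 49 were tested and 2 were called, beside 2.65% of all tested probes. Both were higher in HA, with limma adjusted P of 0.838 and 0.797. Neither carried an accession found among the RefSeq transcripts used for matching, so their genes were not identified. That count was 4 without HA replicate 2 (4 higher), 4 without HA replicate 3 (2 higher, 2 lower), 4 without C replicate 3 (3 higher, 1 lower) and 5 without C replicate 1 (3 higher, 2 lower). The share of all tested probes called in each of these fits was not determined, so these counts cannot be set against a background.

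**Figure D3:**
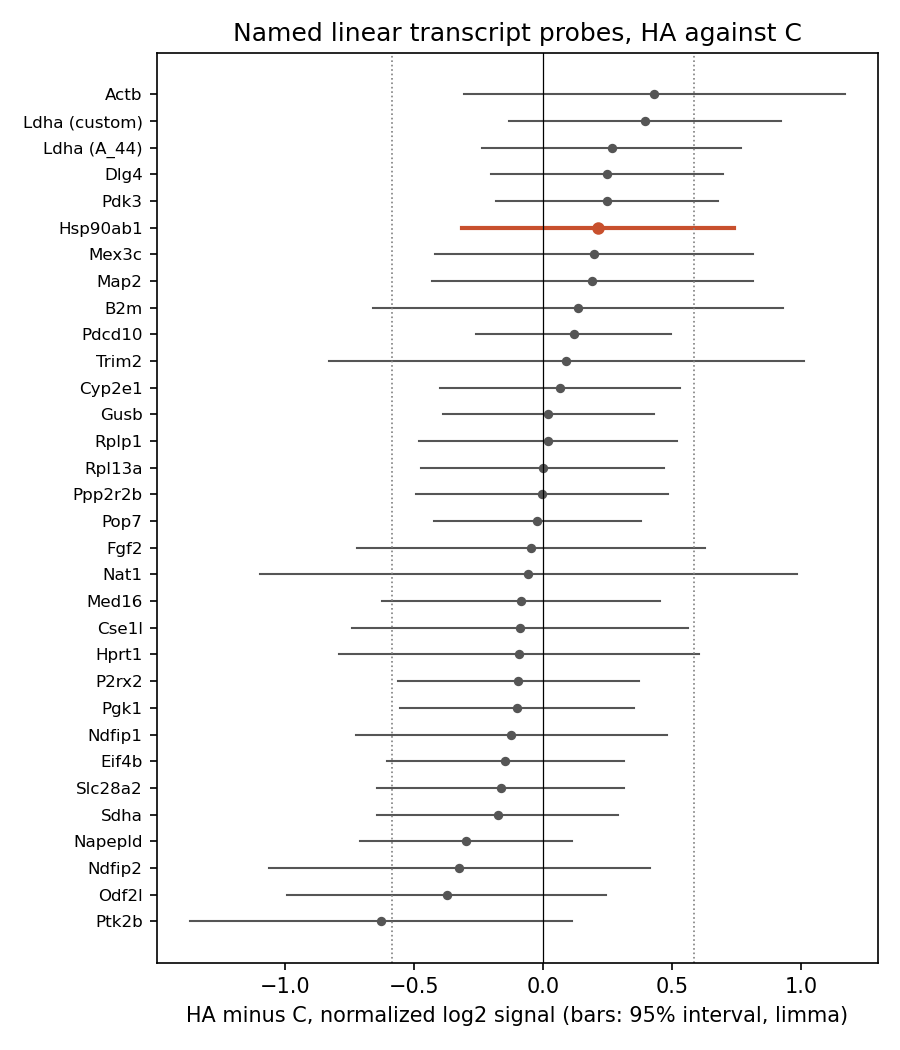
Normalized log2 change, HA minus C, with its 95% confidence interval, of each tested linear transcript probe that matched a gene; Hsp90ab1 is marked. Dotted lines mark a 1.5-fold change in either direction. All 32 intervals cross 0, and Hsp90ab1, at 0.21, is 6th from the top.

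Of a list of 39 heat-shock chaperones, co-chaperones, regulators and clients, Hsp90ab1 was the 1 gene with a named linear probe. Its inducible relative Hsp90aa1, the HSP70 genes, Hsf1 and the co-chaperones such as Stip1 and Cdc37 were not analysed here. Of 13 genes used widely as references for expression, 7 had a named linear probe and 0 of these were called, beside 2.65% of all tested probes. At that share, 0 calls among 7 probes do not set these genes apart. The genes of the 23 linear probes without a match were not identified. Under quantile normalization, by the log2 change, Actb (0.43), B2m (0.14), a light chain of class I histocompatibility molecules, and Gusb (0.02), a lysosomal enzyme, were higher in HA. Rpl13a, a ribosomal protein, was at -0.0013, Hprt1, of purine salvage, at -0.09, Pgk1, of glycolysis, at -0.10 and Sdha, of the mitochondrial succinate dehydrogenase, at -0.18. The change of Hsp90ab1, 0.21, lay between those of B2m and Actb. The direction within these 7 followed the scaling, with 5 higher and 2 lower after scaling to the 75th percentile.

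Of 49 cell type markers, 2 had a named linear probe, both neuronal and both well above background on all 6 arrays. Both were listed as markers of neurons in general, so the hypothalamus label itself could not be checked. Dlg4, which encodes the postsynaptic scaffold PSD-95, had a normalized log2 signal of 10.85, 10.76 and 11.09 in HA and 10.95, 10.36 and 10.64 in C (difference 0.25, limma adjusted P = 0.923). Map2, of dendritic microtubules, differed by 0.19 (limma adjusted P = 0.944). Markers of hypothalamic neuropeptides, glia, vessels and blood had no named linear probe and were not analysed here.

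The named linear transcript whose pattern over the 6 arrays was most like that of Hsp90ab1 was Ldha, the muscle-type subunit of lactate dehydrogenase, at the probe A_44_P210461. Likeness was the root mean square difference between normalized log2 signals, each probe centred on its own mean, over the 6 arrays and among 25 probes. It was 0.0591 for this Ldha probe, 0.120 for Rplp1, a protein of the ribosomal stalk, and 0.129 for Map2. Ldha was at 9.54, 9.32 and 10.05 in HA replicates 1 to 3 and at 9.13, 9.50 and 9.47 in C replicates 1 to 3. As with Hsp90ab1, C replicate 1 was lowest and HA replicate 3 highest, and the group difference of 0.27 did not pass the test (limma adjusted P = 0.923). The other Ldha probe, CUST_6_PI421900130, had a difference from the Hsp90ab1 pattern of 0.321, 20th of the 25 probes, so the pair of Ldha probes disagreed in pattern. Its group difference, 0.40 (limma adjusted P = 0.923), had the same direction as that of the first Ldha probe. Without normalization, or with a shift of each array, the first Ldha probe was again the most alike, at 0.0759, followed by Pgk1 (0.114) and Med16 (0.115), a subunit of the Mediator complex, while Rplp1 was 4th and Map2 8th. These values share the arrays and their brightness and are given as a description.

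**Figure D4:**
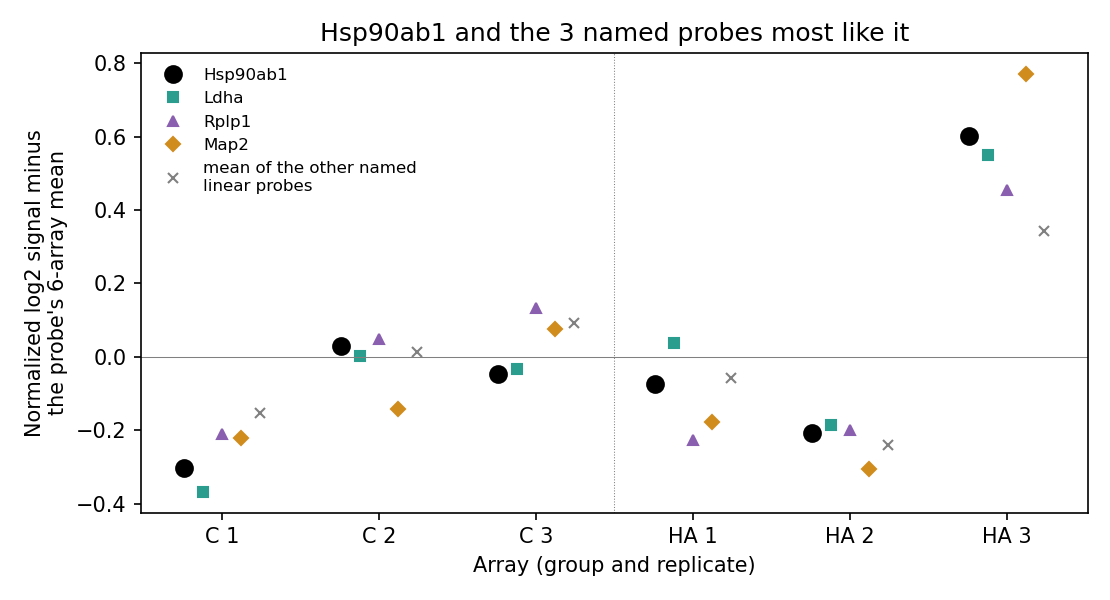
Normalized log2 signal minus the probe's own mean over the 6 arrays, for Hsp90ab1, the 3 named linear probes most like it (Ldha at its probe A_44_P210461, Rplp1 and Map2) and the mean of the other named linear probes, by array. HA replicate 3 is the highest array for each series, at 0.60 for Hsp90ab1, which is lowest on C replicate 1, at -0.30.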

How the data were processed

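RNA of 3 HA and 3 C rats was hybridized to one-colour Agilent arrays of an Arraystar rat circRNA design, after RNase R digestion. The authors quantified the scans with Agilent Feature Extraction, version 11.0.1.1. The deposited files give for each spot the background-subtracted intensity (processed signal), mean and median intensities and flags, not normalized between arrays. Limma is named in the submitters' processing notes without a version. Groups were taken from the sample labels. Gene symbols came from the transcript accessions in the files, matched to RefSeq (GRCr8).

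From these intensities, log2 was taken, spots carrying a non-uniformity or population outlier flag were dropped, spots of a probe were averaged, and arrays were normalized by quantiles (limma 3.58.1, R 4.3.3), as the methods of the study name. Probes of which at least 50% of spots were well above background on at least 3 of 6 arrays were tested with lmFit and eBayes (HA against C, two-sided, no covariates), with Benjamini-Hochberg adjustment over 13892 probes. Measures with 1 value per rat were compared by exact permutation. The fit was also run on simulated data with independent errors and no differences in brightness between arrays. That run therefore cannot show how the fit behaves where arrays differ in brightness, as these did. All arrays shared 1 scan time and held different positions, and were taken to lie on 1 slide. Neither slide nor scan could thus serve as a block, and the row and the column on the slide were used instead. The number of arrays limits the precision.

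Named genes were Hsp90ab1, genes of the chaperone, reference and marker lists with a probe, named linear transcripts past both limits, and the 3 most like Hsp90ab1. Ptk2b, Med16 and the second Ldha probe were named after their values were seen. The gene, the lists and the tests were chosen with earlier results of these data known. Alternatives were other scalings, background corrections, filters and tests, array weights, a block for the replicate number, and fits that left out 1 rat. The slide row and column were added after seeing the data.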

Additional observations from a re-analysis of the deposited data

How the results depend on the processing

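The normalized difference of Hsp90ab1 (0.21) stayed above 0 and was not called under all 15 alternatives that kept every rat or slide row 1. It ran from 0.0270 in slide row 1 to 0.37 with the slide column as a block. Benjamini-Hochberg adjusted P was 0.727 to 1 over these and the fits that left out 1 rat. The filters, the other tests and the replicate block cannot move this difference, so its sign there was fixed at that of 0.21. Slide row 1 alone and the slide row as a block both rest on HA replicate 1 against the C rats. Leaving out 1 rat gave a difference of -0.0329 to 0.369. The difference before normalization (-0.00026) was 0.00388 with outlier spots kept, -0.600 in slide row 1 only, and -0.228 to 0.300 with 1 rat left out. The relative difference (0.18) was -0.00852 after 75th percentile scaling, 0.0698 in slide row 1 only, 0.314 with the median of the reference transcripts, and 0.103 to 0.232 with 1 rat left out. The cause was not tested.

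The count of 2 called linear probes was 4 after circRNA median scaling, 0 with normexp, 0 with the median intensity and 5 without the filter. It was 5 with the slide row as a block (2 higher, 3 lower), 5 with the slide column as a block (3 higher, 2 lower), and 2 to 5 with 1 rat left out. The share of all tested probes called was not determined for these fits or for the replicate block, so these counts cannot be set against a background.

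The replicate numbers mark different rats. Deviations of same-numbered rats correlated at -0.03, -0.20 and 0.07, and 1 of 3 HA rats correlated best with its own number, so the numbers were not taken as pairs. With the replicate number as a block, Hsp90ab1 differed by 0.21 (limma P = 0.381), the relative difference was 0.18 (exact permutation P = 0.25, the smallest possible), and 4 linear probes were called (3 higher, 1 lower). All 60 spots of Hsp90ab1 were well above background.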
